A study of Homo sapiens with 6 samples.

Results

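The basal and stress keratins described here are 10 genes, KRT5, KRT14, KRT15, KRT16, KRT17, KRT6A, KRT6B, KRT6C, KRT81 and KRT13. They were picked out by gene symbol from 23340 gene names, and all 10 were present. RNA was sequenced from 3 human cell lines with 2 libraries each, one labelled 25M reads and one labelled with a greater depth. HT-29, a colorectal adenocarcinoma line, was grown in McCoy's medium with fetal bovine serum and given interferon-γ (IFN-γ) at 200 U/ml for 24 h in both of its libraries. MDA-MB-436, a breast carcinoma line, was grown in L-15 medium with fetal bovine serum and no added CO2. MCF10A, a non-tumorigenic mammary epithelial line, was grown in DMEM/F12 with horse serum, EGF, hydrocortisone, cholera toxin and insulin. Line, medium and IFN-γ differ together between these groups and cannot be told apart. No label states that both libraries of a line stem from separate cultures, so each p-value reflects only how far these libraries vary, which may be a technical spread.

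Keratins are the intermediate filament proteins of epithelial cells, and a filament forms from an acidic type I keratin paired with a basic type II keratin. KRT5 (type II) and KRT14 (type I) are the pair of the basal layer of stratified epithelia and of basal and myoepithelial cells of the breast, where type I KRT15 is also made. KRT6A, KRT6B and KRT6C (type II) pair with KRT16 and KRT17 (type I) and are known for their induction in wounded and hyperproliferative epidermis. KRT13 is a type I keratin of the suprabasal layers of internal stratified epithelia, and KRT81 is a type II hair keratin. Simple epithelia such as the gut instead make KRT8, KRT18, KRT19 and KRT20.

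The type II genes of the group lie on chromosome 12, in the order KRT81, KRT6B, KRT6C, KRT6A and KRT5, and the type I genes lie on chromosome 17, in the order KRT13, KRT15, KRT14, KRT16 and KRT17. Several are near-identical copies, and how reads that match more than one gene were counted is not given in the sources used here. The coding sequences of the KRT6 genes are 1695 bases long in the GENCODE v29 transcripts. KRT6A and KRT6B differed at 43 positions (97.5% identical), KRT6A and KRT6C at 35 (97.9%) and KRT6B and KRT6C at 26 (98.5%). The 50 coding bases from position 673 to 722, shown because reads were 50 bases long and this stretch tells the KRT6 genes apart best, hold 9 positions at which the 3 genes are not all alike, given in capitals.
KRT6A: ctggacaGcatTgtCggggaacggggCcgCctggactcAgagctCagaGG
KRT6B: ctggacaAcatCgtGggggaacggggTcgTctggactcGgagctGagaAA
KRT6C: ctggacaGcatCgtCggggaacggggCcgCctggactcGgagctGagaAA
At the other extreme, the first 50 coding bases are the same in all of them, so a single read from this stretch could belong to any of the 3 genes.
KRT6A, KRT6B and KRT6C: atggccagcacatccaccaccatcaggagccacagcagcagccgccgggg
Of all 50-base stretches of its transcript, KRT6C shared 53.6% with another keratin gene or pseudogene, KRT6B 47.1%, KRT81 44.6% and KRT6A 39.1%. The share was 23.8% for KRT14, 22.0% for KRT16, 17.4% for KRT17, 3.99% for KRT5, 1.03% for KRT13 and 0.725% for KRT15. Counts of the KRT6 genes and of KRT81, which shared 38.4% with its neighbour KRT86, are therefore uncertain between copies.

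Values are the deposited normalised counts, which are read counts scaled by 1 factor per library. Libraries held 16.7 to 69.5M reads, and 1 read was worth 1.50 to 2.06 normalised counts in the 25M libraries and 0.491 to 0.616 in the deeper ones. The label check went against 2 of the 3 line labels. The libraries in question are therefore called HT-29-labelled, with IFN-γ in both, and MDA-MB-436-labelled, and every direction below holds for the labels as deposited. KRT20, an intestinal keratin, had 0 and 0.547 in the HT-29-labelled libraries, 29900 and 30880 in the MDA-MB-436-labelled ones and 0 and 1.47 in MCF10A. VIL1, which encodes the microvillus protein villin, was at 0 in both HT-29-labelled libraries, at 2055 and 2198 in the MDA-MB-436-labelled ones and at 0 in both of MCF10A. VIM, which encodes the mesenchymal filament vimentin, had 36599 and 35267 in the HT-29-labelled libraries, 16.5 and 7.39 in the MDA-MB-436-labelled ones and 25901 and 26246 in MCF10A. The summed level of 6 intestinal markers was 3.00 and 6.02, 76003 and 79681, and 1.87 and 7.36 in the same order of lines. The sum of 5 mesenchymal markers was 50627 and 49008 in the HT-29-labelled libraries, 165 and 141 in the MDA-MB-436-labelled ones and 30345 and 30697 in MCF10A, and that of 4 pan-epithelial markers was 6395 and 6161, 295444 and 308215, and 18907 and 18251. The sum of 6 basal mammary markers, KRT5 and KRT14 among them, was 9557 and 8967, 33212 and 33363, and 752498 and 738377, and that of 4 luminal mammary markers was 222 and 237, 31697 and 32135, and 991 and 1006. PTPRC, a leukocyte marker, was at most 10.3 in any library, and PECAM1, an endothelial one, was at 110 and 77.7 in the HT-29-labelled libraries and at most 19.6 elsewhere.

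**Figure D1:**
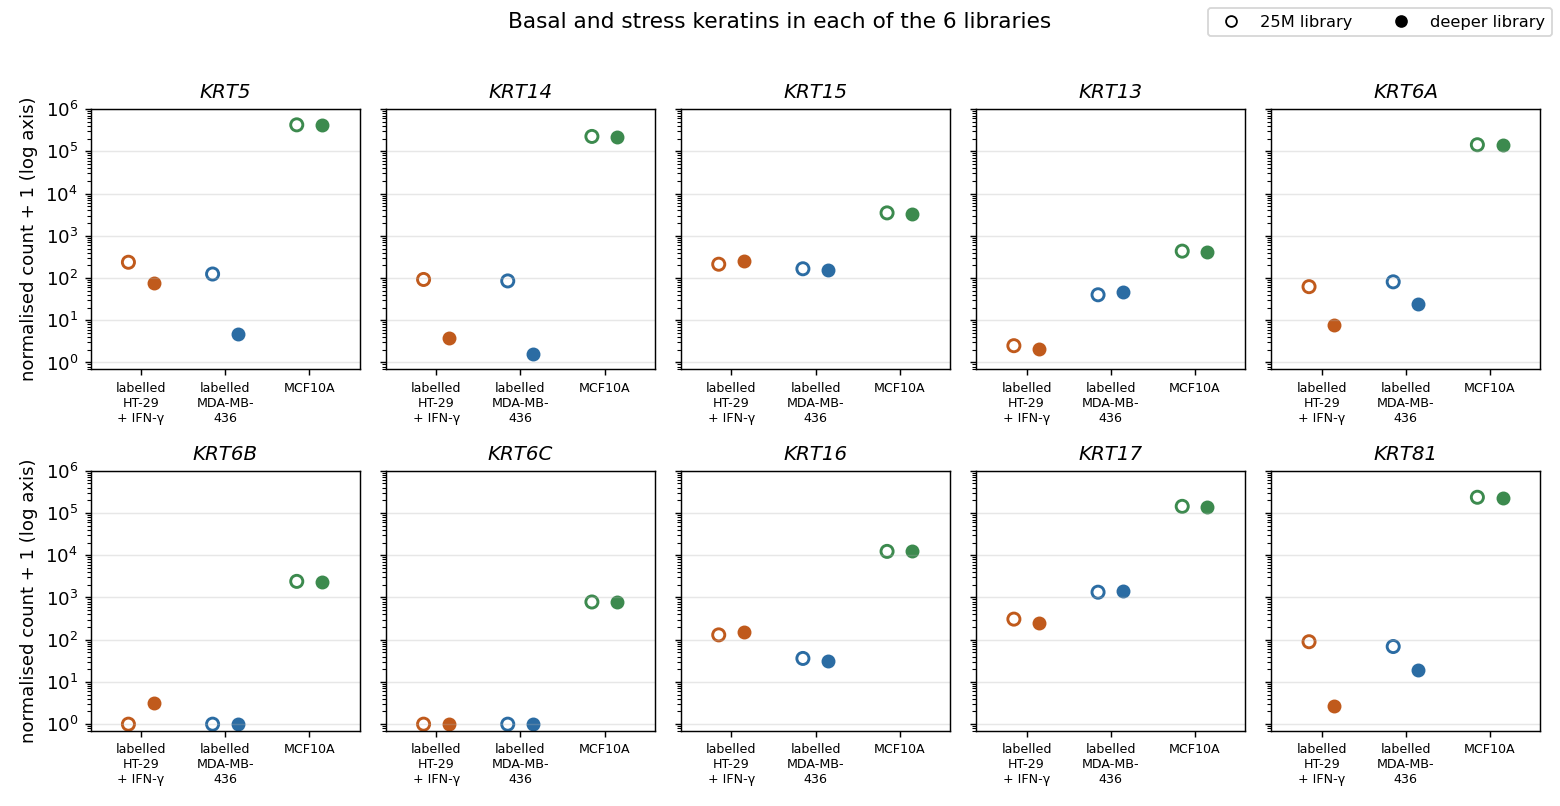
Normalised count plus 1 (log axis) of the 10 keratins in each library, with open circles for the 25M library and filled circles for the deeper library of each line. MCF10A lies above both other lines for every gene, and the open and filled circles of KRT5, KRT14, KRT6A and KRT81 stand apart in the other lines but not in MCF10A.

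MCF10A made the group in very large amounts. KRT5 was the gene with the highest normalised count of all in both MCF10A libraries, KRT81 ranked 2 in both, KRT14 ranked 3 and 4, KRT17 ranked 8 and 10, and KRT6A ranked 9 in both. The 10 genes together took 0.00407% and 0.00269% of all reads in the HT-29-labelled libraries, 0.00561% and 0.00484% in the MDA-MB-436-labelled ones and 3.49% and 3.42% in MCF10A. On a scale of normalised count per kilobase of transcript, which allows genes to be compared, KRT5 led in MCF10A with 165999 ± 2212 (SD, n = 2 here and below). KRT14 followed with 133744 ± 2797 per kilobase, KRT81 with 121095 ± 1745, KRT17 with 93667 ± 1579 and KRT6A with 61430 ± 876. The next gene was KRT16 with 7547 ± 63.0 per kilobase, and below it KRT15 had 1427 ± 42.0, KRT6B 1036 ± 25.2, KRT6C 343 ± 2.35 and KRT13 248 ± 9.21. Neighbours in this order were farther apart than the spread of their libraries, and the order was the same with gene lengths implied by the deposited tables. In RNA from whole cultures, fewer cells making a keratin and less RNA per cell cannot be told apart.

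In both other lines the order was another one. Per kilobase, the deeper HT-29-labelled library had KRT17 at 162, KRT15 at 106, KRT16 at 89.5 and KRT5 at 30.5, with KRT6A at 2.84, KRT14 at 1.65, KRT6B at 0.959, KRT81 at 0.851, KRT13 at 0.644 and KRT6C at 0. The deeper MDA-MB-436-labelled library had KRT17 at 924 per kilobase, KRT15 at 63.5, KRT13 at 27.6, KRT16 at 18.7, KRT6A at 10.1, KRT81 at 9.58, KRT5 at 1.46 and KRT14 at 0.371, with KRT6B and KRT6C at 0. The 25M libraries gave another order below KRT17. In the HT-29-labelled one KRT17 was at 202 per kilobase, KRT5 at 93.1, KRT15 at 88.4 and KRT16 at 78.5, and in the MDA-MB-436-labelled one KRT17 was at 878, KRT15 at 68.8, KRT14 at 50.8 and KRT5 at 48.8. KRT17 thus led in all 4 of these libraries, while KRT5 and KRT14 led in MCF10A.

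The first question was how far each keratin lay below its level in MCF10A. Genes were tested with limma on log2(normalised count + 1) over 15638 genes with at least 10 normalised counts in at least 2 libraries, and a gene was called if its p, adjusted by Benjamini and Hochberg's method, was below 0.05 and its change at least 2-fold. All 10 keratins were called lower in the HT-29-labelled libraries than in MCF10A, as were 18.1% of all genes tested, and none was called higher, against 28.4% of all genes. Their median log2 fold change was -9.99, against 0.13 for all genes. All 10 were also called lower in the MDA-MB-436-labelled libraries, as were 23.7% of all genes, and none higher, against 25.6% of all genes, with a median of -10.41 against 0 for all genes. With genes at 0 reads set to their bound (a floor of 3 reads over both libraries of a line), the medians were -9.86 and -9.90. Both comparisons share the MCF10A libraries. KRT6B and KRT6C reached the filter in the MCF10A libraries alone, so for them a difference was bound to appear. Fitted changes are differences between mean log values, to which the added 1 matters for low genes. Each N-fold value is a ratio of reads pooled over the libraries of a line, with a 95% interval for counting error only, so the fitted and the pooled values part where paired libraries are unequal.

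Among the keratins of the basal layer, KRT5 had normalised counts of 236 and 77.2 in the HT-29-labelled libraries (25M library first here and below), 124 and 3.70 in the MDA-MB-436-labelled ones and 424101 and 416184 in MCF10A. MCF10A overlapped with neither of them, while the other two overlapped with each other. KRT5 was 3497-fold lower in the HT-29-labelled libraries than in MCF10A (3122 to 3931; log2 fold change -11.59, SE 1.98, limma adjusted p = 0.0104). It was 13354-fold lower in the MDA-MB-436-labelled ones than in MCF10A (10496 to 17267; -14.08, SE 1.98, adjusted p = 0.00594). These folds depended on the library by more than their counting intervals: the log2 fold change of KRT5 was -12.39 without the 25M HT-29-labelled library and -10.79 without the deeper one, and -16.45 and -11.72 for the MDA-MB-436-labelled libraries in the same order. KRT14, its filament partner, had 91.5 and 2.74 in the HT-29-labelled libraries, 84.4 and 0.616 in the MDA-MB-436-labelled ones and 225570 and 218996 in MCF10A. Its paired libraries lay far apart in both lower lines, and its SE was 2.91. KRT14 was 8328-fold lower in the HT-29-labelled libraries (log2 fold change -13.55, adjusted p = 0.0199) and 11067-fold lower in the MDA-MB-436-labelled ones (-14.21, adjusted p = 0.0176). Without the 25M HT-29-labelled library the log2 fold change of KRT14 was -15.86 and without the deeper one -11.23, and for the MDA-MB-436-labelled libraries these values were -17.07 and -11.35.

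KRT15 had 212 and 253 in the HT-29-labelled libraries, 165 and 152 in the MDA-MB-436-labelled ones and 3487 and 3344 in MCF10A. It kept a far larger share of its MCF10A level than KRT5 or KRT14, being 13.9-fold lower in the HT-29-labelled libraries (12.8 to 15.2; log2 fold change -3.88) and 21.8-fold lower in the MDA-MB-436-labelled ones (19.5 to 24.4; -4.42, SE 0.0940, adjusted p = 3.35e-09). KRT13, the suprabasal type I keratin, had 1.50 and 1.09 in the HT-29-labelled libraries, 39.1 and 46.8 in the MDA-MB-436-labelled ones and 433 and 410.4 in MCF10A. The 3 lines did not overlap for KRT13. It was 9.22-fold lower in the MDA-MB-436-labelled libraries than in MCF10A (7.47 to 11.5; log2 fold change -3.27, SE 0.224, adjusted p = 2.73e-06), the smallest fold among the 10 genes in either comparison. In the HT-29-labelled libraries only 3 reads of KRT13 were counted, against 1067 in MCF10A, a ratio of 345 (118 to 1676).

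Of the stress keratins, KRT17 stayed highest outside MCF10A. It had 306 and 246 in the HT-29-labelled libraries, 1332 and 1402 in the MDA-MB-436-labelled ones and 143787 and 140400 in MCF10A. KRT17 was 538-fold lower in the HT-29-labelled libraries than in MCF10A (498 to 582; log2 fold change -9.01) and 102-fold lower in the MDA-MB-436-labelled ones (98.2 to 106; -6.70, SE 0.0894, adjusted p = 5.74e-10). KRT16, the other type I stress keratin, had 129 and 147 in the HT-29-labelled libraries, 35.0 and 30.8 in the MDA-MB-436-labelled ones and 12335 and 12481 in MCF10A. The lower lines thus stood in the opposite order to KRT17. KRT16 was 87.5-fold lower in the HT-29-labelled libraries (78.8 to 97.4; log2 fold change -6.48) and 392-fold lower in the MDA-MB-436-labelled ones (309 to 506; -8.52, SE 0.0933, adjusted p = 1.70e-10).

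KRT6A had 61.5 and 6.57 in the HT-29-labelled libraries, 80.3 and 23.4 in the MDA-MB-436-labelled ones and 143336 and 140473 in MCF10A. It was 6639-fold lower in the HT-29-labelled libraries (log2 fold change -12.67, SE 1.36, adjusted p = 0.00230) and 3864-fold lower in the MDA-MB-436-labelled ones (-11.64, adjusted p = 0.00296). The log2 fold change of KRT6A was -14.20 without the 25M HT-29-labelled library and -11.15 without the deeper one, and -12.51 and -10.77 for the MDA-MB-436-labelled libraries. KRT6B, its near-identical copy, had 0 and 2.19 in the HT-29-labelled libraries, 0 in both MDA-MB-436-labelled ones and 2404 and 2323 in MCF10A. With 4 reads against 6016, KRT6B was 1459-fold lower in the HT-29-labelled libraries (570 to 5357), and with 0 reads it was at least 1645-fold lower in the MDA-MB-436-labelled ones, taking a floor of 3 reads over both libraries. KRT6C was at 0 in all 4 libraries of these lines and at 781 and 788 in MCF10A, so it was at least 654-fold lower in the HT-29-labelled libraries and at least 553-fold lower in the MDA-MB-436-labelled ones. KRT6A made up most of the KRT6 counts in MCF10A, and the shared stretches shown above leave the split between the copies uncertain.

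KRT81, the hair keratin, had 88.5 and 1.64 in the HT-29-labelled libraries, 67.9 and 18.5 in the MDA-MB-436-labelled ones and 235972 and 231212 in MCF10A. It was 9341-fold lower in the HT-29-labelled libraries (7287 to 12184; log2 fold change -13.89, SE 2.14, adjusted p = 0.00779) and 7775-fold lower in the MDA-MB-436-labelled ones (6077 to 10118; -12.64, adjusted p = 0.0102). For KRT81 too the library decided the size, with a log2 fold change of -16.43 without the 25M HT-29-labelled library and -11.35 without the deeper one, and of -13.55 and -11.73 for the MDA-MB-436-labelled libraries. KRT86, the hair keratin that shares most sequence with KRT81, had 37.5 and 36.1 in the HT-29-labelled libraries, 86.5 and 87.5 in the MDA-MB-436-labelled ones and 2228 and 2254 in MCF10A. The paired libraries were level for KRT86 and not for KRT81. Leaving out 1 library ended 4 of these calls: without the deeper HT-29-labelled library, KRT5 (adjusted p = 0.0630) and KRT14 (0.0833) were no longer called, and without the deeper MDA-MB-436-labelled one, KRT14 (0.0546) and KRT81 (0.0612) were no longer called.

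The second question concerned the HT-29-labelled against the MDA-MB-436-labelled libraries. One keratin was called higher, KRT16, and 29.9% of all genes tested were called higher. KRT17 and KRT13 were called lower, against 23.5% of all genes, and the median log2 fold change of the 10 keratins was 0.27, against 0.09 for all genes. KRT16 was 4.48-fold higher in the HT-29-labelled libraries than in the MDA-MB-436-labelled ones (3.44 to 5.91; log2 fold change 2.04, SE 0.0933, adjusted p = 2.20e-07), from 355 against 67 reads. KRT17 was 5.28-fold lower (4.85 to 5.76; -2.31, SE 0.0894, adjusted p = 1.16e-07), from 654 against 2923 reads. KRT13 was 37.4-fold lower (12.4 to 184.8; -4.26, SE 0.224, adjusted p = 5.09e-07), from 3 against 95 reads. KRT15 was 1.56-fold higher (1.36 to 1.79; log2 fold change 0.55, adjusted p = 7.66e-04) and stayed under the 2-fold threshold.

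**Figure D2:**
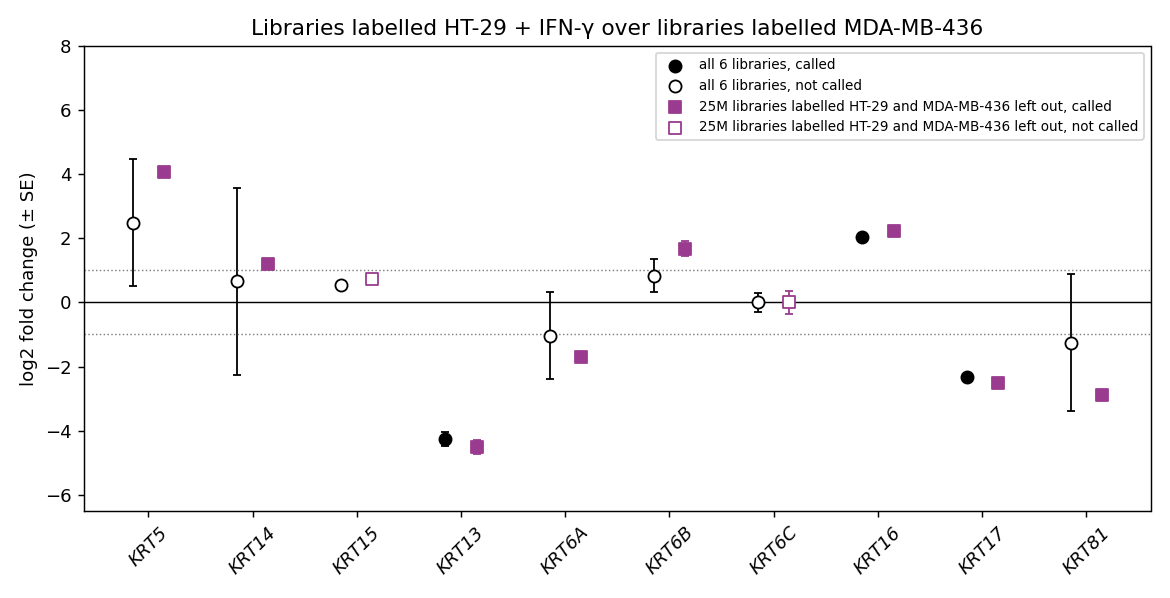
Log2 fold change with SE of each keratin in the HT-29-labelled libraries over the MDA-MB-436-labelled ones, from all 6 libraries (circles) and without both 25M libraries of these lines (squares), with filled symbols for called genes and dotted lines at a change of 2-fold. KRT16, KRT17 and KRT13 are called either way, at 2.04, -2.31 and -4.26 with all libraries, while KRT5, KRT14, KRT6A, KRT6B and KRT81 are called in the second fit and not in the first.

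For the other 6 keratins no difference was called with all libraries, and for KRT5, KRT81, KRT6A and KRT14 the 25M and the deeper libraries gave different ratios. The log2 fold change of KRT5 was 2.49 (SE 1.98, limma adjusted p = 0.311). Within the 25M libraries KRT5 was 1.91-fold higher in the HT-29-labelled one than in the MDA-MB-436-labelled one (1.41 to 2.61), and within the deeper libraries 20.9-fold higher (9.36 to 57.9), from 141 against 6 reads. For KRT81 the log2 fold change was -1.25 (SE 2.14, adjusted p = 0.616). In the 25M libraries KRT81 had a ratio of 1.30 (0.837 to 2.06) and in the deeper ones it was 11.3-fold lower (3.50 to 57.6), from 3 against 30 reads. For KRT6A it was -1.03 (SE 1.36, adjusted p = 0.517), with a ratio of 0.766 (0.482 to 1.22) in the 25M libraries and a 3.56-fold lower level in the deeper ones (1.82 to 7.49). For KRT14 it was 0.66 (SE 2.91, adjusted p = 0.846), with a ratio of 1.08 (0.718 to 1.65) in the 25M libraries and of 4.44 (0.497 to 210.1) in the deeper ones, the second from 5 against 1 reads. KRT6B (adjusted p = 0.155) had 4 reads against 0, and KRT6C had none in either line.

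With both 25M libraries left out, an alternative chosen after seeing the data, the log2 fold change was 4.06 for KRT5 and 2.22 for KRT16. It was 1.67 for KRT6B, 1.21 for KRT14, 0.73 for KRT15 and 0 for KRT6C. Negative values were -4.51 for KRT13, -2.88 for KRT81, -2.50 for KRT17 and -1.69 for KRT6A. The spread in that fit came from the MCF10A pair alone, with 1 residual degree of freedom, and did not include the counting error of low genes. Its calls are therefore not counted. The values of KRT14 and KRT6B rest on the 5 against 1 and 4 against 0 reads above.

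The third question was how unequal the paired libraries were. A gene counted as unequal at a ratio of at least 4 between the 25M and the deeper library, with at least 20 reads in both together. Among 14870 genes of the HT-29-labelled libraries, 3 were higher in the 25M library, which is 0.0202%, and all of them were keratins of this group: KRT14, KRT6A and KRT81. Among 13462 genes of the MDA-MB-436-labelled ones, 3 were higher in the 25M library, which is 0.0223%, and KRT5 and KRT14 were among them. The remaining one was ANPEP, chosen after its values were seen, which encodes aminopeptidase N, with 24.7 and 4.93 there and 36463 and 36438 in MCF10A. In MCF10A none of 13382 genes, 0.0%, was higher in the 25M library. The opposite direction, higher in the deeper library, held for 10, 19 and 16 genes in the HT-29-labelled libraries, the MDA-MB-436-labelled ones and MCF10A, none of them a keratin of this group. With at least 5 reads asked for in place of 20, the 25M library was the higher one for 62 genes of the HT-29-labelled libraries (0.371%), 53 of the MDA-MB-436-labelled ones (0.352%) and 32 of MCF10A (0.215%), the basal and stress keratins among them being the same 3, 2 and 0. These ratios compare 1 library with 1 library and have no replicate check.

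KRT14 had 61 reads in the 25M HT-29-labelled library and 5 in the deeper one, a ratio of scaled levels of 33.4 (13.6 to 107). In the MDA-MB-436-labelled libraries it had 41 reads against 1, a ratio of 137 (23.3 to 5543). KRT81 had a ratio of 53.9 in the HT-29-labelled libraries (17.6 to 269; 59 against 3 reads) and of 3.68 in the MDA-MB-436-labelled ones (2.17 to 6.24). KRT5 had a ratio of 3.05 in the HT-29-labelled libraries (2.42 to 3.86) and of 33.4 in the MDA-MB-436-labelled ones (14.5 to 94.7; 60 against 6 reads). KRT6A had ratios of 9.37 (4.83 to 19.6) and 3.43 (2.14 to 5.51) in the same order of lines. These 4 keratins, with KRT17, are the 5 with the highest levels in MCF10A. KRT15, KRT16 and KRT17 stayed near a ratio of 1, between 0.835 and 1.24 in both lines, and in MCF10A all 10 keratins lay between 0.988 and 1.05. The highest of the former, 1.24 for KRT17 in the HT-29-labelled libraries, had an interval above 1 (1.05 to 1.47).

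**Figure D3:**
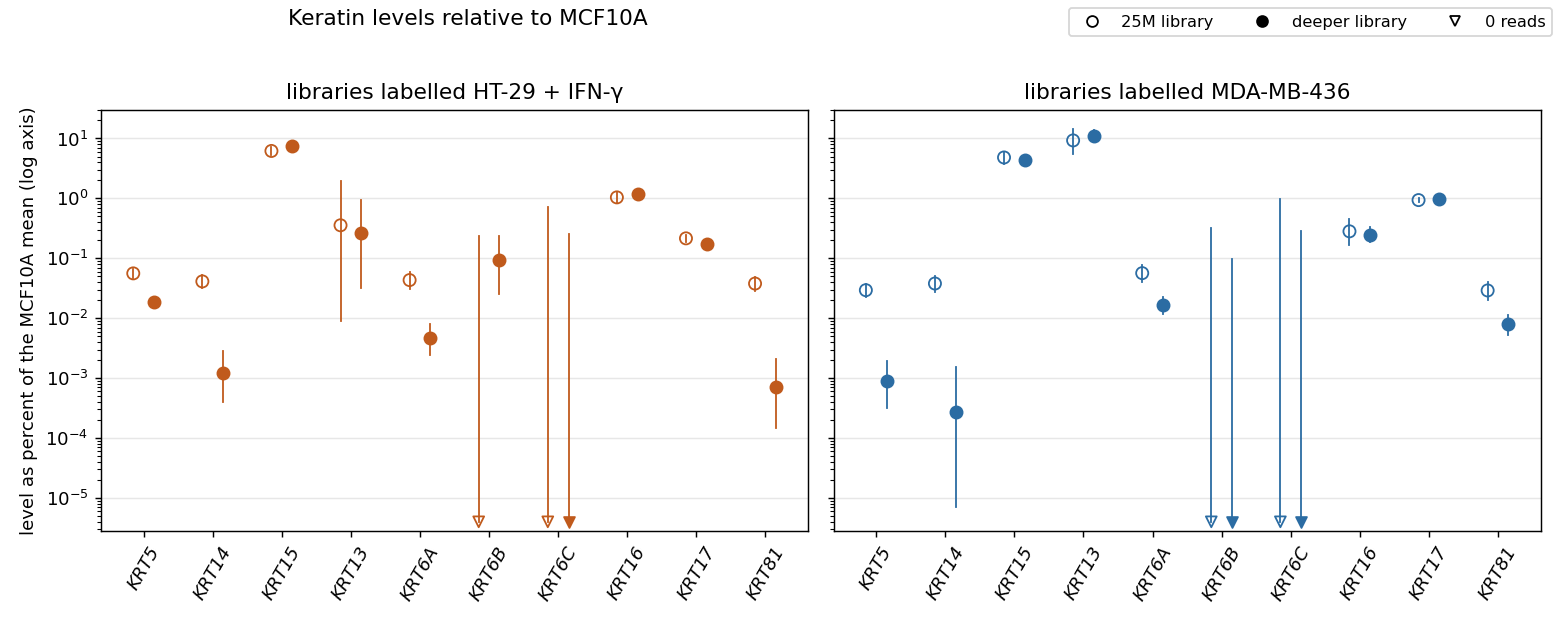
Level of each keratin in each HT-29-labelled (left) and MDA-MB-436-labelled (right) library as a percent of its MCF10A mean (log axis), with exact 95% Poisson intervals of the recovered reads and triangles at the foot of the axis for 0 reads. In the 25M libraries (open circles) KRT5, KRT14, KRT6A and KRT81 lie between 0.0291% and 0.0566%, and in the deeper ones (filled circles) they range from 0.000277% to 0.0184%.

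The excess of the 25M library was then set against the MCF10A mean. In the HT-29-labelled libraries, the level in the 25M library minus that in the deeper one was 0.0377% of the MCF10A mean for KRT5, 0.0399% for KRT14, 0.0387% for KRT6A and 0.0372% for KRT81. These 4 keratins were taken because their paired libraries were unequal. The MCF10A means behind their values ran from 141905 for KRT6A to 420143 for KRT5. In the MDA-MB-436-labelled libraries the same difference was 0.0285% for KRT5, 0.0377% for KRT14, 0.0401% for KRT6A and 0.0212% for KRT81, with more spread. What sets the size of these differences was not tested. KRT17 was at 0.215% (0.187 to 0.247) and 0.173% (0.158 to 0.190) in the HT-29-labelled libraries. This is a difference of 0.0421% and a ratio of 1.24 (1.05 to 1.47). In the MDA-MB-436-labelled ones KRT17 was at 0.937% in the 25M library (0.867 to 1.01) and 0.987% in the deeper one (0.946 to 1.03), intervals wider than such an excess. KRT16 was at 1.04% (0.832 to 1.28) and 1.19% (1.05 to 1.34) in the HT-29-labelled libraries and at 0.282% (0.164 to 0.452) and 0.248% (0.184 to 0.327) in the MDA-MB-436-labelled ones, again with wide intervals. For KRT15, KRT6B, KRT6C and KRT13 a single read in the 25M HT-29-labelled library was worth 0.0439%, 0.0635%, 0.191% and 0.356% of the MCF10A mean, so an excess of this size was not detectable at this depth.

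Genes outside the group were described in the same way, taking those with an MCF10A mean of at least 10000 and a level under 0.01% of it in the lower library. In the MDA-MB-436-labelled libraries there were 3, CLCA2 at 0.0569% in the 25M library and 0.00567% in the deeper one, SFRP1 at 0.0368% and 0%, and TIMP3 at 0.0565% and 0%. No other gene met this rule in the HT-29-labelled libraries. With the HT-29-labelled libraries as the high line, added after seeing the data, the 25M MDA-MB-436-labelled library had FBLN2 at 0.0473%, MAGEA4 at 0.0713% and UCHL1 at 0.0541%, and the deeper one had 0.00606%, 0.00388% and 0%. With the MDA-MB-436-labelled libraries as the high line, the 25M HT-29-labelled library was the lower one for all 7 genes that met the rule, from 0 to 2 reads there and 1 to 11 in the deeper one. With MCF10A as the low line, 9 genes met it, and 3 were higher in the 25M library and 6 in the deeper one, from 0 to 5 and 0 to 18 reads. All of these values rest on few reads, with 3 to 11 in the 25M library for the 6 genes named before. The rule asks that the lower library be under 0.01%, which by itself favours unequal pairs. For CLCA2, TIMP3 and UCHL1, 1 read in the 25M MDA-MB-436-labelled library was worth more than 0.01% of the mean in the high line. With any read there, these genes could meet the rule only through the deeper library, so their direction came from the rule. Where the additional keratin reads of the 25M libraries came from was not tested. The levels of KRT5, KRT14, KRT6A and KRT81 in these lines therefore depend on the library, and the deeper libraries give the lower value for each of them.

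The balance of filament partners, taken here from RNA alone, also differed between the lines. In the sums over all keratins KRT222, whose gene lies with the type I genes on chromosome 17, was counted as type II. It averaged 5.46 in the HT-29-labelled libraries, 0 in the MDA-MB-436-labelled ones and 58.6 in MCF10A. Summed per kilobase over all 55 keratins, type I over type II was 1.54 and 1.59 in the HT-29-labelled libraries, 1.08 in both MDA-MB-436-labelled ones and 0.612 and 0.607 in MCF10A. Over the 10 basal and stress keratins alone it was 2.56 and 10.2 in the HT-29-labelled libraries, 8.77 and 48.9 in the MDA-MB-436-labelled ones and 0.678 and 0.674 in MCF10A, so the deeper library had the higher ratio in both lower lines. The group made up 9.55% and 6.72% of all keratin reads in the HT-29-labelled libraries, 0.599% and 0.499% in the MDA-MB-436-labelled ones and 92.0% and 91.9% in MCF10A. All keratins together took 0.0427% and 0.0401% of reads, 0.936% and 0.969%, and 3.79% and 3.72% in the same order of lines.

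The 7 simple epithelial keratins moved otherwise. In the MDA-MB-436-labelled libraries, 6 of 7 were higher than in MCF10A (25.6% of all genes were) and 1 was lower (23.7%). KRT19, KRT20 and KRT23 reached the filter through the MDA-MB-436-labelled libraries alone, so that for them a difference from these libraries was bound to appear. KRT20 (log2 fold change 14.24), KRT19 (11.61) and KRT80 (6.35) had the largest increases, and KRT8, the type II keratin of simple epithelia, averaged 164831 ± 5494 there and 2426 ± 16.7 in MCF10A. KRT7, a type II keratin of glandular epithelia, was the one that was lower (-8.21, adjusted p = 1.77e-11), with 283 ± 5.05 in the MDA-MB-436-labelled libraries and 84160 ± 721 in MCF10A. In the HT-29-labelled libraries 1 was higher than in MCF10A (28.4% of all genes were), KRT80 (4.46). There 3 were lower (18.1% of all genes were), KRT7 (-6.58), KRT19 (-2.10) and KRT18 (-1.15). The value of KRT19 rests on 6 reads against 17 in MCF10A, near the floor in both lines. Against the MDA-MB-436-labelled libraries, the HT-29-labelled ones had 6 of 7 lower (23.5% of all genes were), led by KRT20 (-14.58), KRT19 (-13.71) and KRT8 (-6.43). KRT7 was higher (log2 fold change 1.64; 29.9% of all genes were).

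Of 12 suprabasal and other epithelial keratins, 7 were tested, and 6 of them reached the filter through 1 line alone, KRT12 through the MDA-MB-436-labelled libraries and KRT1, KRT4, KRT9, KRT24 and KRT78 through MCF10A. A difference from that line was bound to appear for these 6, so their values are a description. KRT4, the usual type II partner of KRT13, had 1.50 and 0 in the HT-29-labelled libraries, 0 in both MDA-MB-436-labelled ones and 1247 and 1327 in MCF10A. KRT13 was the one of the pair that was still counted in the MDA-MB-436-labelled libraries, with 95 reads. KRT24 was at 0 in both other lines and at 238 and 214 in MCF10A. KRT12, a keratin of the cornea, had 0 in both HT-29-labelled libraries, 24.7 and 14.2 in the MDA-MB-436-labelled ones and 3.75 and 0.982 in MCF10A. KRT10, a type I keratin of the suprabasal epidermis and the one that reached the filter in more than 1 line, had 693 and 705 in the HT-29-labelled libraries, 1585 and 1797 in the MDA-MB-436-labelled ones and 2610.4 and 2447 in MCF10A. It was lower in the HT-29-labelled libraries than in the MDA-MB-436-labelled ones (log2 fold change -1.27, limma adjusted p = 3.79e-07).

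Of 25 hair and root sheath keratins other than KRT81, 7 were tested, and 5 of them reached the filter through 1 line alone, KRT32, KRT34 and KRT75 through the HT-29-labelled libraries, KRT40 through the MDA-MB-436-labelled ones and KRT85 through MCF10A. KRT75, a keratin of the hair follicle, had 63.0 and 58.5 in the HT-29-labelled libraries, 0 in both MDA-MB-436-labelled ones and 0 and 1.96 in MCF10A. KRT32 was at 27.0 and 17.5 in the HT-29-labelled libraries and at 0 in the other lines. KRT85 was at most 0.616 in the other lines and at 172 and 123 in MCF10A. KRT83 and KRT86 reached the filter in more than 1 line. KRT83 was lower than in MCF10A in the HT-29-labelled libraries (log2 fold change -8.46) and in the MDA-MB-436-labelled ones (-5.61), and so was KRT86 (-5.89 and -4.67). Both were also lower in the HT-29-labelled libraries than in the MDA-MB-436-labelled ones (-2.85 and -1.22). KRT83, KRT85 and KRT86 are neighbours of KRT81 on chromosome 12 and were, like it, highest in MCF10A, as was KRT7 beyond KRT86. On the other side KRT84 and KRT82, which follow KRT85, were at most 0.547 in any library. KRT75 after them was highest in the HT-29-labelled libraries. KRT81 shared 38.4% of its 50-base stretches with KRT86 and 6.22% with KRT83, so their counts are uncertain between copies as well.

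Keratin filaments are tied to desmosomes and hemidesmosomes by plakins and their partners. Of 12 such anchor genes, 10 were lower in the HT-29-labelled libraries than in MCF10A (18.1% of all genes were) and none was higher (28.4%), with a median log2 fold change of -2.71. EVPL, which encodes envoplakin, fell the most (-9.97, adjusted p = 1.91e-07), to 0.821 ± 1.16 against 1634 ± 9.09 in MCF10A, followed by COL17A1, the hemidesmosomal collagen (-9.19), and DSP, which encodes desmoplakin (-4.52). In the MDA-MB-436-labelled libraries 4 of 12 were lower (23.7% of all genes were) and 1 was higher (25.6%), so the share of lower ones was not far from that of all genes. The median was -0.31, against -10.41 for the basal and stress keratins. COL17A1 (log2 fold change -3.64), DST, which encodes dystonin (-2.19), and DSP (-1.81) were the lower ones with the largest change, and PPL, which encodes periplakin, was higher (2.32). Between the 2, 9 anchors were lower in the HT-29-labelled libraries than in the MDA-MB-436-labelled ones (23.5% of all genes were), led by EVPL (-9.33), COL17A1 (-5.55) and JUP, which encodes plakoglobin (-4.35).

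Among 21 transcription factors and other regulators linked to these keratin genes or to keratinocyte differentiation, 5 were higher (28.4% of all genes were) and 12 lower (18.1%) in the HT-29-labelled libraries than in MCF10A, with a median log2 fold change of -3.63. TRIM29 (-8.54) and ZNF750 (-7.87) were among the lower ones, and GLI2 (5.41), KLF4 (3.05) and ELF3 (2.14) were highest. In the MDA-MB-436-labelled libraries 11 were higher (25.6% of all genes) and 8 lower (23.7%), with a median of 1.11. GRHL2 reached the filter through the MDA-MB-436-labelled libraries alone and ZNF750 through MCF10A alone, so their differences from those lines were bound to appear. GRHL2 (log2 fold change 11.58), OVOL1 (6.03) and ELF3 (5.87) were highest and BNC1 (-12.84), TP63 (-9.21) and ZNF750 (-7.61) lowest. Further, 4 were higher (29.9% of all genes) and 15 lower (23.5%) in the HT-29-labelled libraries than in the MDA-MB-436-labelled ones, led by BNC1 (8.03), TFAP2C (7.17) and TP63 (2.13) upwards and GRHL2 (-10.89) and OVOL1 (-9.83) downwards. TP63 encodes p63, the master regulator of basal epithelial cells. It averaged 20.8 ± 4.59 in the HT-29-labelled libraries, 3.91 ± 0.298 in the MDA-MB-436-labelled ones and 2908 ± 103 in MCF10A. TP63 was lower than in MCF10A in both other lines, as KRT5 and KRT14 were, and higher in the HT-29-labelled libraries than in the MDA-MB-436-labelled ones (log2 fold change 2.13, adjusted p = 1.55e-05). BNC1, which encodes the basal keratinocyte factor basonuclin, had 264 and 256 in the HT-29-labelled libraries, 0 in both MDA-MB-436-labelled ones and 7251 and 7383 in MCF10A. Its fitted change in the MDA-MB-436-labelled libraries depends on the 1 added before taking logs and is no bound.

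Genes outside the group were ordered by their root mean square difference from KRT5 in log2(normalised count + 1) over the 6 libraries. This measure compares levels, so a gene with the same profile at another level counts as distant. The nearest were S100A2 at 3.06, SFRP1 at 3.18, KRT7 at 3.23, TFCP2L1 at 3.43 and TIMP3 at 3.77, so none was close to KRT5 in level. KRT5 was higher in MCF10A than each of them. S100A2, a calcium-binding protein of basal cells, had 852 and 710 in the HT-29-labelled libraries, 284 and 296 in the MDA-MB-436-labelled ones and 133773 and 131830 in MCF10A. Among the closest to KRT17 were FKBP5 at 1.31, SFN at 1.42, S100A2 at 1.55 and KRT7 at 1.69. SFN, which encodes the epithelial protein 14-3-3σ, had 449 and 432 in the HT-29-labelled libraries, 3654 and 3949 in the MDA-MB-436-labelled ones and 40154 and 38576 in MCF10A.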

How the data were processed

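RNA-seq libraries of 3 lines (2 each) were grouped by their cell line labels. Per the submitters' processing notes, FastQC, STAR 2.2.0, HTSeq and hg19 were used, with no settings given. Which gene annotation and strand setting were used is not given in the sources used here. Per the file headers, the authors deposited normalised counts (a signal scaled by 1 factor per library) and RPKM. In all libraries 100% of values above 0 were whole multiples of 1 step (tolerance 0.001), so whole reads were recovered, 16.7 to 69.5 M per library. The deposited RPKM was out of register with the symbols in 3524 of 23368 rows, none of them a basal or stress keratin, and served only for implied gene lengths. Rows whose symbol read as a date (28, the 4 rows with a repeated name among them) were left out, which kept 23340 names. For the deeper MCF10A library the labels give 100M reads in one place and 50 in another.

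limma 3.58.1 (R 4.3.3, trended, robust prior) was fitted to log2(normalised count + 1) of 15638 genes in all 6 libraries, with 3 residual degrees of freedom. It was also run on simulated counts. These held smaller changes than those of the keratins against MCF10A and no built-in inequality of paired libraries, so they do not cover these keratins. On recovered reads, edgeR 4.0.16's quasi-likelihood test called 7365 genes for the HT-29-labelled libraries against MCF10A and 7772 for the MDA-MB-436-labelled ones against MCF10A, against 7265 and 7701 by limma. DESeq2 1.42.0, limma-voom, other scalings, filters and pseudocounts, thinning and left-out libraries were further alternatives. By the naming rule, all 10 keratins, the markers, up to 3 called genes per list and direction and the 5 genes nearest KRT5 and KRT17 are named, except for some that are not reported here. ANPEP, CLCA2, FBLN2, MAGEA4 and UCHL1 fall outside it and were chosen after their values were seen. Members and lists were chosen with earlier results of these data known. Sequences and transcript lengths are from GENCODE v29 (GRCh38); no coordinates were carried over to hg19.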

Additional observations from a re-analysis of the deposited data

How the results depend on the processing

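Against MCF10A, 10 keratins were called lower and 0 higher in each comparison under every scaling, test, filter and pseudocount tried. The count was 8 of 10 without the deeper HT-29-labelled or MDA-MB-436-labelled library, as given above, and 8 of 8 where 1 MCF10A library was left out or both were summed, since KRT6B and KRT6C then missed the filter. Between the HT-29-labelled libraries and the MDA-MB-436-labelled ones, the count was 1 higher and 2 lower, against 29.9% and 23.5% of all genes. It became 2 higher with edgeR, where KRT6B was added (log2 fold change 3.99, adjusted p = 0.0353) and 4624 of 15638 genes were higher. Calls also changed when a library of these lines or both 25M libraries were left out. A line then held 1 library, so these counts are not given. Depth class (25M or deeper) used as a replicate block gave the same counts, 1 higher and 2 lower, and changed no other call; the labels give no replicate numbers, so the block pairs libraries by depth only. Uncalled values changed sign for KRT14 (log2 fold change -1.65 without the 25M HT-29-labelled library and -2.20 without the deeper MDA-MB-436-labelled one), KRT6A (0.49 without the deeper HT-29-labelled library) and KRT81 (0.054 with DESeq2 and 1.29 without that same library). When each library was left out in turn, KRT14 ran from -2.20 to 3.52, KRT6A from -2.56 to 0.49 and KRT81 from -3.79 to 1.29. With at least 100 reads asked for in place of 20, 0 keratins were unequal between paired libraries in either line, and only 4 and 2 of them reached that depth. Nor was any gene at all, with 0 of 12910 in the HT-29-labelled libraries and 0 of 11686 in the MDA-MB-436-labelled ones. With library size as the only scaling, the median of all genes moved to 0.44 for the HT-29-labelled libraries against MCF10A (5445 higher and 1990 lower, against 4442 and 2823) and to 0.43 against the MDA-MB-436-labelled ones (5692 and 2797, against 4675 and 3675). Depth limits the low values, since KRT14, KRT6B, KRT6C, KRT81 and KRT13 had 5 reads or fewer in the deeper HT-29-labelled library. The cause of these changes was not tested.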
